A study of Mus musculus with 14 samples.

Results

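Cultured Eµ-Myc lymphoma lines were chosen by their measured Myc level, and the 4 lines with the most Myc (#115, #136, #549 and #688) were set against the 4 with the least (#649, #309, #517 and #504). These 8 libraries come from 12 cultured lines and 14 libraries in all, with 1 library per line. By the labels each line was raised from a different Eµ-MycTg/+ mouse. Each carries the genotype label WT beside the transgene, and was grown untreated for 24 h in medium with 0.37 mM added L-asparagine. The groups were thus set by measured Myc alone, and no line has a replicate culture, so the spread within a group is the spread between lines. The remaining lines, #506, #505, #524 and #801, lay between the groups. A vehicle-treated and an asparaginase-treated lymphoma, both grown from #506 in wild-type C57BL/6 mice, took no part in the comparison. The purpose of the comparison was to see which genes other than Myc differ with it among tumours that all carry the transgene.

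The Eµ-Myc mouse carries Myc under the immunoglobulin heavy chain enhancer, so the transgene is driven in B-lineage cells and clonal B cell tumours arise from them. MYC is a basic helix-loop-helix leucine zipper transcription factor. It pairs with MAX and binds E-boxes, of which CACGTG is the canonical form, and it is known for raising genes of ribosome production, nucleotide synthesis and energy metabolism. The MXD proteins, MNT and MGA compete for MAX, and the ARF-p53 pathway, which is often lost in these tumours, restrains cells with excess MYC.

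Levels of Myc are given as CPM, the counts of a gene per 1000000 gene counts of its library. Line #115 had 2717 CPM, #136 2674 CPM, #549 2532 CPM and #688 1821 CPM. Among the lowest, #649 had 1301 CPM, #309 1164 CPM, #517 1094 CPM and #504 470 CPM. The lines between had 1773 CPM (#506), 1740 CPM (#505), 1684 CPM (#524) and 1628 CPM (#801). The means were 2436 ± 418 CPM (SD, n = 4 lines) and 1007 ± 369 CPM (SD, n = 4 lines), a ratio of 2.42. This difference is what chose the groups and was not tested. The upper boundary is narrow, since #688 exceeded the excluded #506 by 2.69%, while #801 exceeded #649 by 25.1%. Line #504 stood alone at the bottom, #649 having 2.77 times its level. The lymphomas grown from #506 had 1569 CPM (vehicle) and 1437 CPM (asparaginase). Myc is on chromosome 15 (61985341 to 61990374, plus strand, mm10), and reads of the transgene and of the endogenous gene were counted together.

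**Figure D1:**
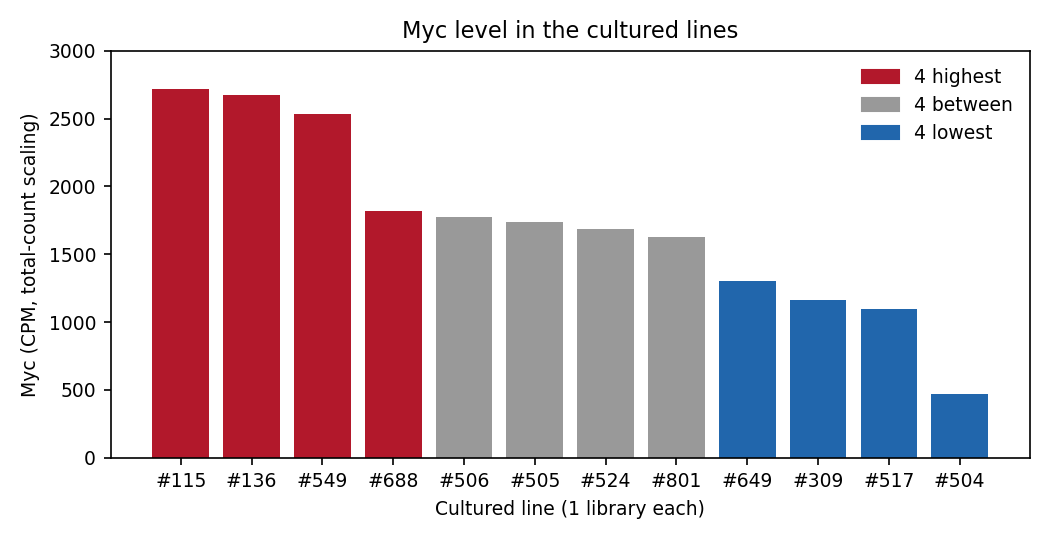
Myc level in CPM (y axis, from 0) for each of the 12 cultured lines (x axis, 1 library each), coloured by group. The 4 highest lines run from 1821 to 2717 CPM and the 4 lowest from 470 to 1301 CPM, and #688 is barely above #506.

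Several libraries stood apart or resembled each other. All other levels in the text are CPM after TMM scaling. Each B cell tumour usually carries its own rearranged immunoglobulin V segments, yet high-Myc lines shared them. Ighv13-2 was at 284 CPM in #115, 79.0 in #549 and 21.9 in #136, and at most 0.2 in the other lines. Ighv5-17 was at 378 CPM in #688, 366 in #506 and 200 in #549, and Igkv9-120 at 1291, 1303 and 586 CPM in the same lines and at 867 CPM in #649. Line #549 thus held the leading segments of #688 and #506 together with a segment of #115. The leading kappa segment of #115, Igkv12-44 at 592 CPM, was at 0.184 CPM in #549. Igkv5-39 was at 393 CPM in #549, 113 in #136 and 6.37 in #115. Sharing also crossed the groups. Ighv2-2, the leading heavy chain segment of #136 at 189 CPM, was at 15.2 CPM in #309 and 6.74 in #504. Igkv3-12 was at 421 CPM in #136 and 625 in #649. Igkv5-43 was at 64.2, 35.6 and 96.8 CPM in #115, #136 and #549 and at 30.0 CPM in #309. Over the 500 most variable genes Spearman's rho was 0.933 between #688 and #506, 0.898 between #549 and #506 and 0.844 between #549 and #688. It was 0.727 between #115 and #549 and 0.625 between #115 and #136, but 0.408 between #136 and #688. Across the groups, #649 had 0.662 with #688 and 0.612 with #549. Whether these lines are separate tumours, or share cells through mixing of cultures or libraries, was not tested, and the p-values treat each as independent. Calls are therefore also given with #549 and #688 summed as 1 library and without #136 and #549.

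**Figure D2:**
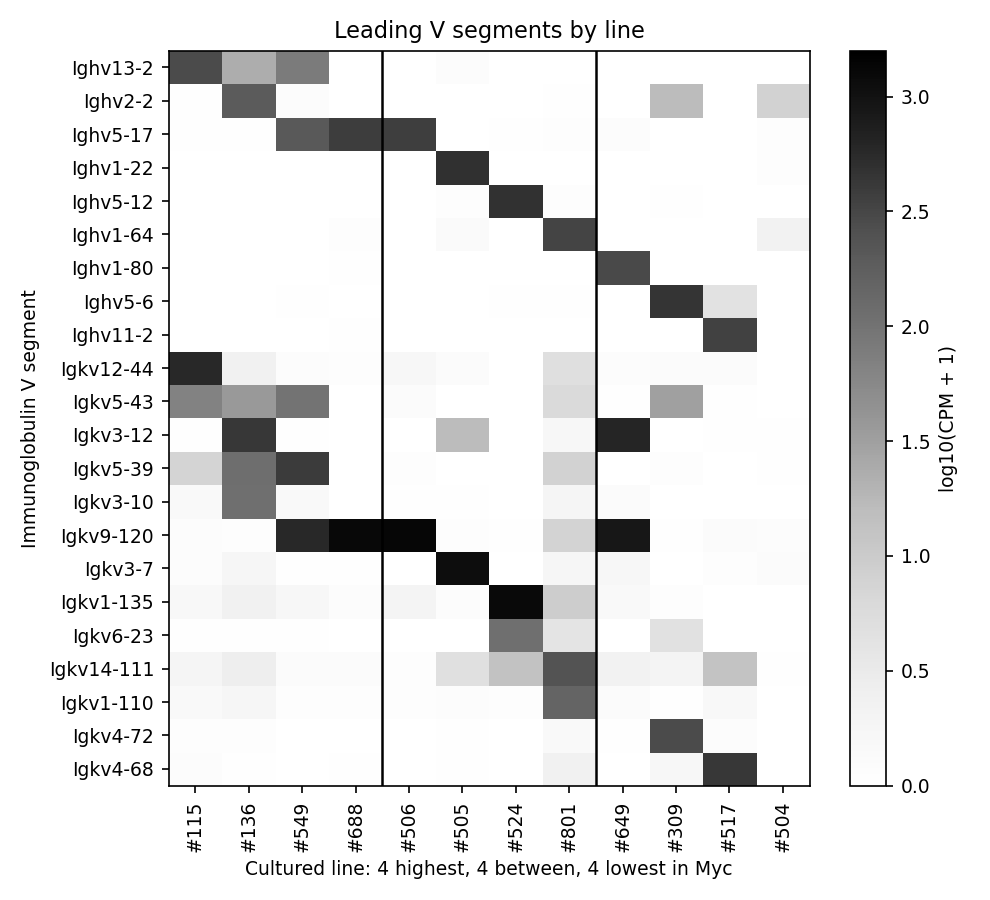
Level of each immunoglobulin V segment that reached 75 CPM in some line (rows), by line (columns), as log10(CPM + 1). Most lines show segments of their own, whereas #549 shares Ighv5-17 and Igkv9-120 with #688 and #506, and Ighv13-2 with #115 and #136.

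The groups also differed in sex-linked genes. Y-linked genes summed to 78.9 CPM in #136 and to at most 1.22 in the other high-Myc lines, against 97.3, 171 and 236 CPM in #649, #309 and #517. They summed to 0.068 CPM in #504, which had Xist at 768 CPM. Xist was at 58.4, 10.1, 487 and 745 CPM in #115, #136, #549 and #688. The part of sex in the results was not tested beyond a fit with Y-linked expression as a term, which called 62 genes higher and 109 lower and held 31 of the 34 genes described next. Line #504 also had markers of B cell progenitors, with Dntt at 992 CPM, Igll1 at 419 CPM and Vpreb1 at 294 CPM. The malignant B cell label was borne out by Cd79a, Cd79b and Pax5, with 289 CPM the lowest value of any of them in the 12 lines. The 16 T and NK cell markers summed to 13.1 to 26.1 CPM in the high-Myc and 14.9 to 141 CPM in the low-Myc lines. Of these, 5 were at 0 in all 8 lines, Cd3e, Cd4 and Ncr1 among them, and Cd8a was at 0.0368 CPM in #549 and 0 elsewhere. Cd2, an adhesion receptor gene, reached 106 CPM in #309, while the kinase genes Lck and Zap70 reached 11.3 and 8.96 CPM in #136. The 16 macrophage and neutrophil markers summed to 4.5 to 11.7 CPM against 8.53 to 64.5 CPM, with 6 at 0 in all 8 lines, C1qa and S100a8 among them. Mrc1, the mannose receptor gene, was at 27.9 CPM in #309 and 53.9 in #504 and at most 3.87 in the high-Myc lines. Cd68 was at 1.28 to 2.36 CPM in the high-Myc and 2.36 to 3.2 CPM in the low-Myc lines, and Itgam overlapped. The 12 fibroblast and endothelial markers summed to 69.5 to 75.8 against 70.1 to 154 CPM, nearly all of it Pecam1 in the high-Myc lines. The part of such cells in the results was not tested. Depth did not separate the groups, at 26352085 to 31385899 counts per library against 24597230 to 32614751. Spike-in counts were 0, so RNA per cell was not measured.

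Of 12874 genes tested other than Myc, 34 passed edgeR's quasi-likelihood test at a Benjamini-Hochberg adjusted p under 0.05 (0.264%). In the high-Myc lines 20 were higher (0.155%) and 14 lower (0.109%). A looser description counts genes whose 4 high-Myc lines all lay above, or all below, the 4 low-Myc lines. It gave 668 genes above (5.19%) and 951 below (7.39%). An unadjusted p under 0.05 in edgeR was met by 1029 genes that were higher (7.99%) and 1386 that were lower (10.8%). DESeq2 on the 8 lines called 464 higher (3.6%) and 698 lower (5.42%) by its adjusted p, including 33 of the 34 genes. These shares are the background for the counts of each gene list. Of the 20 higher genes 14 (70%) are on chromosome 19, which holds 3.43% of tested genes. The 14 lower genes were spread over 12 chromosomes and included the B cell kinase gene Blk and the MHC class II chaperone gene H2-Oa.

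The number of calls fell in most fits that left out 1 line, and each such fit also had fewer lines. Without #115, #136, #549, #688, #517 or #309 in turn, 1 gene was higher and 0 lower by edgeR's adjusted p, and that gene was Gm43291 each time. At an unadjusted p under 0.05 these 6 fits held 694 to 1045 higher and 1027 to 1470 lower genes. In them the log2 fold changes of the 34 genes were 0.86 to 1.19 times those of the 8 lines. Without #504 there were 12 and 9, with 12 of the 34 genes among them. Without #649 there were 95 and 114, and all 34 genes were among them. Summing #549 and #688 as 1 library again left Gm43291 alone, although the log2 fold changes of the 34 genes were 0.958 to 1.07 times those of the 8 lines. Without #136 and #549, 0 genes were called in either direction (edgeR's smallest adjusted p was 0.0803), with 547 higher and 662 lower at an unadjusted p under 0.05, and the 34 log2 fold changes were 0.907 to 1.16 times as large.

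Genes of chromosome 19 stood higher as a block in the high-Myc lines. The median log2 fold change of its 442 tested genes was 0.59, a 1.51-fold difference, against -0.02 for the 12432 genes elsewhere. All 4 high-Myc lines lay above all 4 low-Myc lines for 180 of these genes (40.7%) and for 488 genes on other chromosomes (3.93%). They all lay below for 3 genes of chromosome 19 (0.679%) and for 948 elsewhere (7.63%). The share of all counts that came from chromosome 19 was 5.23% in #115, 4.88% in #136, 5.19% in #549 and 5.14% in #688. It was 3.34% in #649, 3.55% in #309, 2.56% in #517 and 3.83% in #504. Line #506, outside the groups, had 5.32%, and the other lines between had 3.61% to 3.64%. The raised lines, #115, #136, #549, #688 and #506, are also those that shared the heavy chain V segments named above. Other segments of high-Myc lines were found where chromosome 19 was not raised. These were the heavy chain segment Ighv2-2 of #136 in #309 and #504, and kappa segments in #649 and #309. Whether the shift goes with Myc level or with what the raised lines share was not tested. The shift ran along the chromosome. In its stretches of 15 Mb the median log2 fold change was 0.54 (0 to 15 Mb, 208 genes), 0.61 (15 to 30 Mb, 54 genes), 0.64 (30 to 45 Mb, 91 genes) and 0.61 (45 to 60 Mb, 78 genes).

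Other chromosomes shifted in some lines as well. Against the median of the lines, the median log2 level of genes of #649 was 0.48 higher on chromosome 1. In #309 it was 0.50 higher on chromosome 6 and 0.48 higher on chromosome 12. In #504 it was 0.55 higher on chromosome 18, and in #801 it stood at -0.81 on chromosome 13. Chromosome 3 was at -0.35 in #309 and -0.43 in #504, and the median log2 fold change of its 685 tested genes between the groups was 0.20, 69.5% of them being positive. Line #136 was 0.28 higher on chromosome 9. Line #517 stood at -0.74 on chromosome 19, so the low-Myc group includes the line with the lowest level of that chromosome. Chromosome 15, which carries Myc, stayed between -0.07 and 0.05 in every line. DNA was not measured, and the part of chromosome copy number in these levels was not tested.

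**Figure D3:**
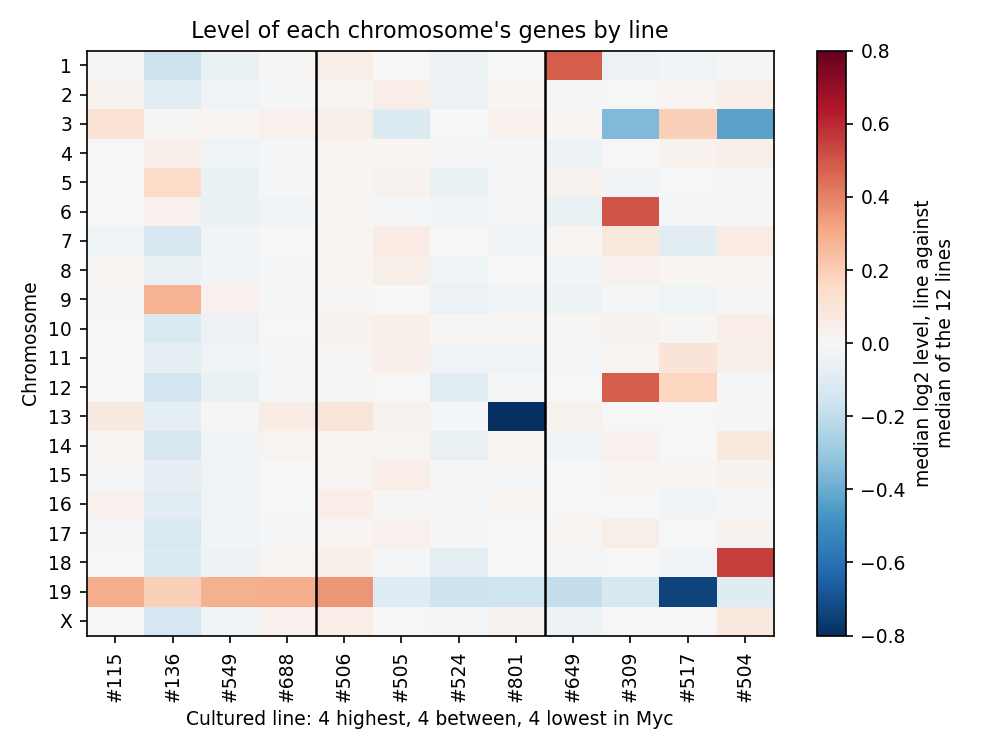
Median log2 level of the genes of each chromosome (rows) in each line (columns), relative to the median of the 12 lines; black lines separate the Myc groups. Chromosome 19 is raised in the 4 high-Myc lines and in #506, and lowest in #517 at -0.74.

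Of the 14 called genes of chromosome 19, Nolc1 encodes a nucleolar phosphoprotein of ribosome biogenesis (46075863 to 46085528, plus strand). Its level was 1443 CPM in #115, 1332 in #136, 1194 in #549 and 1231 in #688, against 657 in #649, 560 in #309, 509 in #517 and 375 in #504. No low-Myc line reached a high-Myc line, and the log2 fold change was 1.34 (SE 0.18, edgeR adjusted p = 0.0425). Peo1 encodes the mitochondrial replicative helicase Twinkle (45006558 to 45012762, plus strand). It stood at 151, 149, 130 and 149 CPM in #115, #136, #549 and #688, and at 58.9, 58.5, 47.2 and 39.7 CPM in #649, #309, #517 and #504. Its log2 fold change was 1.54 (SE 0.15, edgeR adjusted p = 0.0298), the smallest p among these 14 genes.

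Metabolic enzymes were among the 14. Pgam1, the phosphoglycerate mutase of glycolysis, had 691 ± 47.7 CPM against 289 ± 65.2 CPM (SD, n = 4 lines each). Got1, the cytosolic aspartate aminotransferase, had 305 ± 19.4 CPM against 144 ± 28.5 CPM (SD, n = 4 lines each). Slc29a2, an equilibrative nucleoside transporter, had 39.9, 34.3, 28.1 and 19.5 CPM in #115, #136, #549 and #688, and 6.58, 8.74, 8.15 and 10.2 CPM in #649, #309, #517 and #504. All 4 high-Myc lines lay above the low-Myc lines. Ide, which encodes the insulin-degrading enzyme, had 818 to 921 CPM against 226 to 424 CPM. The edgeR adjusted p was 0.0425 for each of the last 4 genes.

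The other chromosome 19 genes higher in the high-Myc lines were Lzts2, Sssca1, Ric1, Wdr74, Usmg5, Mrpl49, Btaf1 and Stip1. Wdr74, a ribosome assembly factor, had 179 ± 18.6 against 80.3 ± 14.9 CPM, and Stip1, the co-chaperone that links HSP70 and HSP90, 572 ± 74.2 against 330 ± 31.4 CPM (SD, n = 4 lines each). Lzts2 had 15.8 to 28.1 CPM against 0.488 to 2.23 CPM. The log2 fold changes of the 14 genes ran from 0.83 (Stip1) to 4.26 (Lzts2). Pgam1-ps2, a processed copy of Pgam1 on chromosome 7, had 192 ± 12.6 against 80.1 ± 17.9 CPM (SD, n = 4 lines each). Its reads may come from Pgam1, since the treatment of reads with several matches is not given in the sources used here. The log2 fold change was 1.297 for Pgam1-ps2 and 1.295 for Pgam1. Pgam1-ps2 is nevertheless counted among the 6 higher genes outside chromosome 19. For all 14 genes #506 was nearer the high-Myc than the low-Myc lines, while #505 was so for 5, #524 for 1 and #801 for 2.

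Outside chromosome 19, most of the higher genes were present or nearly absent rather than graded. The filter for low genes kept those with enough counts in at least 4 lines. Gm43291, Foxp2 and Bbs5 therefore entered the test through the high-Myc lines alone. Among the lower genes, Dock10, Blk, H2-Oa and Gm10505 entered through the low-Myc lines alone. Their near absence in the other group is thus no separate support for the calls. Gm43291 spans the kappa light chain joining segments and constant region on chromosome 6 (70719074 to 70740554, plus strand). It had 29.9 CPM in #115, 28.1 in #136, 35.3 in #549 and 58.9 in #688, and 0.0407 to 0.17 CPM in the 4 low-Myc lines (edgeR adjusted p = 0.000969). Of the lines between, #505 had 55.0, #506 45.4 and #801 21.9 CPM, and #524 had 0.209. Because the gene overlaps the kappa locus and the strand setting of the counting is not given, its reads cannot be told apart from those of kappa transcripts. It passed in 20 of 26 alternative analyses, against 6 to 15 for the other 33 called genes, but not when #801 entered the low group (edgeR adjusted p = 0.452, the highest of the 26; the lowest was 6.99e-50, by DESeq2).

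Slc15a2, a proton-coupled peptide transporter gene, was at 12.9, 10.1, 18.1 and 20.5 CPM in #115, #136, #549 and #688 and at 0.378, 0.0407, 0.204 and 0.034 CPM in #649, #309, #517 and #504. All 4 lines between also had it, at 12.9 to 21.3 CPM, so it marks the low-Myc lines by its near absence (edgeR adjusted p = 0.0425). Foxp2, a forkhead transcription factor gene, was at 2.72, 15.3, 5.86 and 17.6 CPM in #115, #136, #549 and #688, and 5 counts in all were seen in the 4 low-Myc lines (edgeR adjusted p = 0.0437). Mgarp, a mitochondrial protein gene, had 22.2 to 46.7 CPM against 1.63 to 6.48 CPM (edgeR adjusted p = 0.0444). Bbs5, a component of the ciliary BBSome, had 2.44 to 3.81 CPM against 0.034 to 0.292 CPM (edgeR adjusted p = 0.0425).

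Of the 14 genes lower in the high-Myc lines, Dock10, a guanine nucleotide exchange factor of lymphocytes, was covered by 5 counts in all 4 high-Myc lines together, and was at 12.6 CPM in #649, 15.7 in #309, 45.9 in #517 and 160 in #504 (edgeR adjusted p = 0.0425). Blk, a SRC family kinase that signals below the B cell receptor, was at 0.0368 to 0.224 CPM in the high-Myc lines. It was at 37.8 CPM in #649, 57.6 in #309, 6.4 in #517 and 3.84 in #504 (edgeR adjusted p = 0.0468). Plcb2, a phospholipase C, had 0.752 to 1.95 CPM against 12.7 to 37.2 CPM, and Fam65b, an inhibitor of RhoA in lymphocytes, 2.54 to 6.8 against 27.8 to 90.6 CPM. The edgeR adjusted p was 0.0425 for both.

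H2-Oa, a subunit of the H2-O protein that restrains peptide loading of MHC class II, had 0.032 to 0.263 CPM in the high-Myc lines. In the low-Myc lines it had 2.89 (#649), 3.94 (#309), 6.51 (#517) and 6.23 (#504) CPM (edgeR adjusted p = 0.0425). Hes1, a repressor induced by Notch signalling, had 2.87 to 3.8 against 9.81 to 26.3 CPM, and Ifi27, an interferon-induced gene, 0.578 to 1.09 against 4.15 to 15.3 CPM. Akap13, an anchor of protein kinase A that also activates RhoA, had 75.2 ± 9.61 against 149 ± 10.6 CPM (SD, n = 4 lines each), the smallest change of the 14 with a log2 fold change of -0.95 (SE 0.13, edgeR adjusted p = 0.0425). The rest were Gm10505, Slfn10-ps, Ahdc1, Stk11ip, Plxna3 and Prrc1, with log2 fold changes from -2.91 (Gm10505) to -1.12 (Prrc1). Line #506 was on the side of the high-Myc lines for all 14 genes, #524 for 6, #505 for 4 and #801 for 3. As described above, #506 shares V segments with high-Myc lines. The part of this sharing in its levels of the called genes was not tested.

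**Figure D4:**
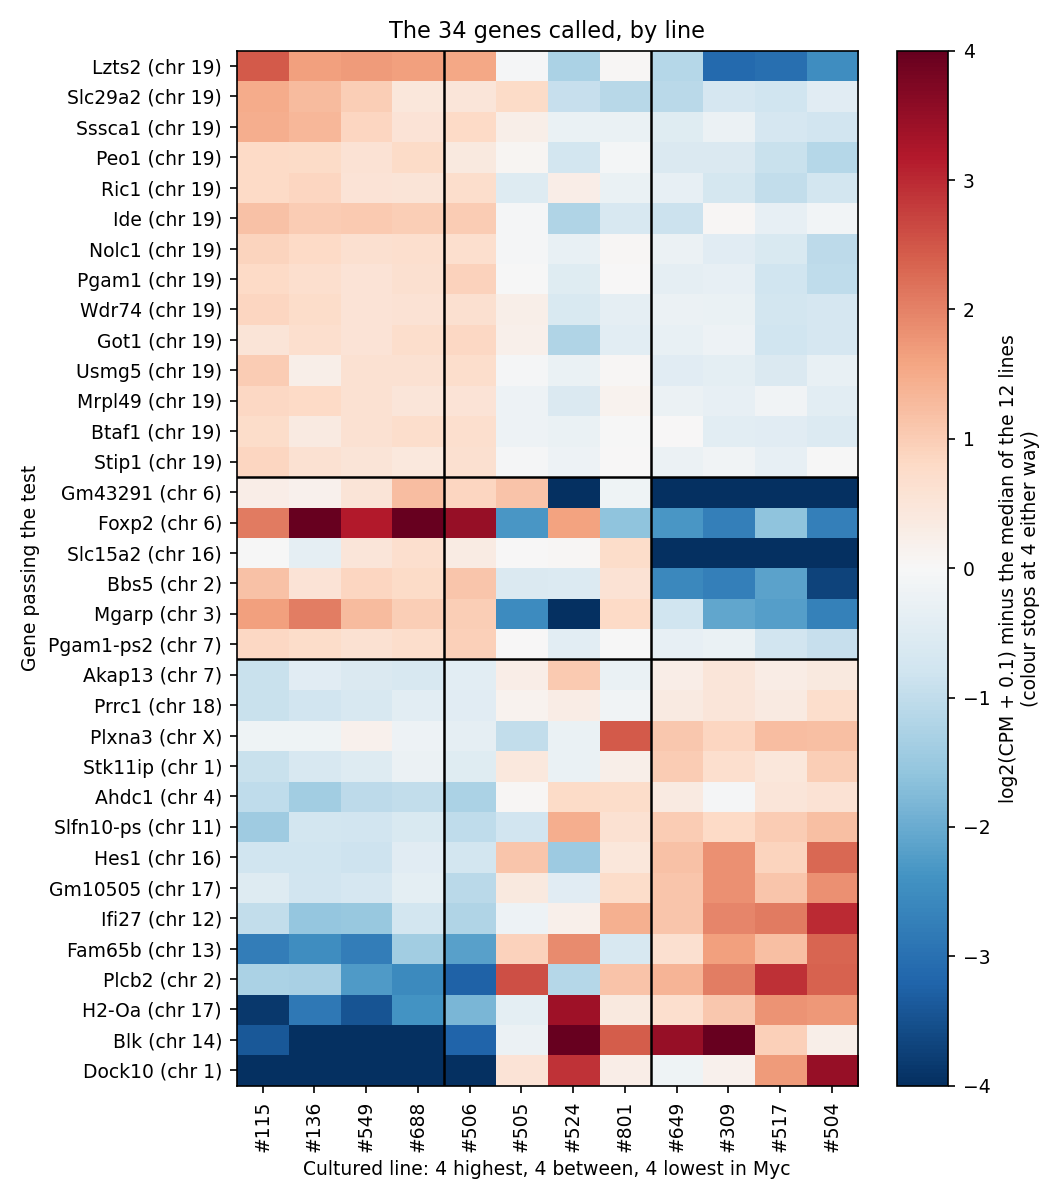
The 34 genes that passed the test (rows; chromosome 19 genes at the top, other higher genes next, lower genes below) in the 12 lines (columns), as log2(CPM + 0.1) minus the gene's median over the lines. Line #506, which is not in either group, has the colours of the high-Myc lines in all 3 blocks, and Slc15a2 is low in the 4 low-Myc lines alone.

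The partners and antagonists of MYC did not pass the test, 0 of 16 tested. At an unadjusted p under 0.05, 2 were higher and 2 lower, against 7.99% and 10.8% of all tested genes. The counts were the same by DESeq2's adjusted p, against 3.6% and 5.42%. Max, the obligate partner, had 144 ± 21.2 against 130 ± 29.4 CPM, and Mnt 81.4 ± 6.96 against 86.2 ± 11.1 CPM (SD, n = 4 lines each). Mga was at 105 ± 9.78 and 113 ± 9.27 CPM, and Mxd4 at 93.0 ± 30.6 and 103 ± 84.8 CPM (SD, n = 4 lines each). Mxi1, an antagonist that lies on chromosome 19, was at 163, 124, 142 and 127 CPM in #115, #136, #549 and #688, and at 80.6, 79.7, 48.8 and 42.3 CPM in #649, #309, #517 and #504. Its groups did not overlap, and it missed the threshold (log2 fold change 1.18, SE 0.23, edgeR adjusted p = 0.0806). Mxd3, expressed in S phase, had 1.31 to 2.41 CPM against 3.62 to 11.7 CPM (edgeR adjusted p = 0.0983). Pvt1, the noncoding neighbour of Myc, had 8.64 ± 2.13 and 7.41 ± 1.42 CPM (SD, n = 4 lines each).

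Among 50 genes that MYC is known to raise, 1 passed, Wdr74 of chromosome 19. The median log2 fold change of the list was 0.21, and 42 genes had a positive value. Without overlap, 9 lay above (18%, against 5.19% of all tested genes) and 2 below (4%, against 7.39%). At an unadjusted p under 0.05 in edgeR, 13 were higher and 4 lower, against 7.99% and 10.8% of all tested genes. DESeq2's adjusted p called 5 higher and 1 lower, against 3.6% and 5.42%. Ldha, lactate dehydrogenase A, had 3024, 2931, 2119 and 2061 CPM in #115, #136, #549 and #688, and 1543, 1930, 1791 and 1115 CPM in #649, #309, #517 and #504. Its log2 fold change was 0.70 (SE 0.22, edgeR adjusted p = 0.153). Odc1, the first enzyme of polyamine synthesis, had 821 ± 157 against 644 ± 206 CPM, and Ncl, nucleolin, 4177 ± 200 against 3787 ± 1210 CPM (SD, n = 4 lines each). Ncl was highest of all in a low-Myc line, #649, at 5601 CPM. Ncl lies on chromosome 1, whose median log2 level was 0.48 higher in #649. The part of that shift in the Ncl level was not tested. Of 25 genes that MYC is known to lower, 0 passed, the median was -0.51 and 7 lay below without overlap (28%, against 7.39%). At an unadjusted p under 0.05 there were 2 higher and 12 lower, against 7.99% and 10.8% of all tested genes. DESeq2 called 0 and 7, against 3.6% and 5.42%. Among them Cdkn1a, the p21 inhibitor of cell cycle kinases, had 0.096 to 0.602 CPM against 1.01 to 12.6 CPM (edgeR adjusted p = 0.110). Foxo1 had 46.3 ± 8.21 against 98.1 ± 33.7 CPM (SD, n = 4 lines each, edgeR adjusted p = 0.101).

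The E-box was looked for in RefSeq promoter windows (GRCm38.p6), which run from 250 bases before to 50 bases after a start. CACGTG, which reads the same on both strands, was in the windows of 1065 of 8545 tested genes (12.5%). It was in 12 of 43 of the genes known to be raised by MYC (27.9%) and in 9 of 41 ribosome biogenesis genes (22%). It was in 0 of 14 genes called higher and 0 of 8 called lower that had a window. These counts rest on few genes and were not tested against the 12.5%. The only window of Ide, chr19:37334495-37334794, lies inside the gene as counted (37268743 to 37337852, minus strand). The bases before its counted start were therefore not searched. The 250 bases before the start of Nolc1, the called gene with the most counts, are shown beside those of Ldha, which has 2 copies, with CACGTG in capitals. Both are 5′ to 3′ on the plus strand, Nolc1 at chr19:46075597-46075846 and Ldha at chr7:46845554-46845803.
Nolc1: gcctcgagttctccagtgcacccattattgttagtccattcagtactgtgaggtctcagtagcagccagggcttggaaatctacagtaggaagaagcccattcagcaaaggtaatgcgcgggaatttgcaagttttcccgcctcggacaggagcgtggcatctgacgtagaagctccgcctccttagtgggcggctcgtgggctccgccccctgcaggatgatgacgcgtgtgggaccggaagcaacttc
Ldha: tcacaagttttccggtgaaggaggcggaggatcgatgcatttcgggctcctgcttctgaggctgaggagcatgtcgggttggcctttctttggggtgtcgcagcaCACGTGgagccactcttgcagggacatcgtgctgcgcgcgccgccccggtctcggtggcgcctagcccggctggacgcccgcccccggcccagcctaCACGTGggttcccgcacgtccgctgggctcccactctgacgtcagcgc
The Nolc1 stretch has 0 copies, and Ldha, which did not pass the test, has both of its copies in the stretch shown. A match is a description of the letters, and no binding was measured.

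Lists of growth and energy genes had small positive medians with few calls by edgeR's adjusted p. For ribosome biogenesis 1 of 46 genes passed (Nolc1), and the median log2 fold change was 0.23. In that list 11 lay above without overlap (23.9%, against 5.19% of all tested genes), 9 of them outside chromosome 19. At an unadjusted p under 0.05, 14 were higher and 0 lower, and DESeq2 called 7 and 0. The higher shares over all tested genes were 7.99% and 3.6%. Ddx10, a helicase of small ribosomal subunit assembly on chromosome 9, had 149 ± 30.9 against 97.2 ± 9.72 CPM (SD, n = 4 lines each, edgeR adjusted p = 0.119). Cytosolic ribosomal protein genes had 0 of 47 called by edgeR or DESeq2, 1 at an unadjusted p under 0.05, 0 without overlap and a median of 0.12. In oxidative phosphorylation 0 of 47 passed, the median was 0.24 and 11 lay above without overlap (23.4%), 7 of them outside chromosome 19. DESeq2 called 10 higher, and 18 were higher at an unadjusted p under 0.05, against 3.6% and 7.99% of all tested genes. Ndufb8 and Cox8a, subunits of respiratory complexes on chromosome 19, had 148 ± 17.1 against 86.8 ± 11.4 CPM and 335 ± 20.8 against 173 ± 47.6 CPM (SD, n = 4 lines each).

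In glycolysis 1 of 21 genes passed (Pgam1), and the median difference of the list was 0.31 (log2). In all, 4 lay above without overlap (19%, against 5.19% of all tested genes). DESeq2 called 6 higher, and 7 were higher at an unadjusted p under 0.05, against 3.6% and 7.99% of all tested genes. Pgk1, phosphoglycerate kinase on the X chromosome, had 636 ± 65.0 against 422 ± 67.5 CPM (SD, n = 4 lines each, edgeR adjusted p = 0.0999). Gapdh had 1673 ± 191 and 1601 ± 456 CPM (SD, n = 4 lines each). Cholesterol synthesis had 0 of 22 called, a median of 0.46 and 7 above without overlap (31.8%, against 5.19%), none of these 7 on chromosome 19. At an unadjusted p under 0.05 there were 12 higher, and DESeq2 called 9, against 7.99% and 3.6% of all tested genes. Fdps, farnesyl diphosphate synthase, had 52.5 to 64.6 CPM against 29.4 to 37.7 CPM (edgeR adjusted p = 0.0544), and Hmgcs1 223 to 298 against 135 to 182 CPM (edgeR adjusted p = 0.0678). Line #801, between the groups, was the lowest of all for Fdps at 17.4 CPM and for Hmgcs1 at 53.5 CPM.

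The remaining synthesis lists gave 0 calls and 0 to 2 genes above without overlap. These were nucleotide synthesis (27 genes, median 0.10), serine and one-carbon metabolism (17, -0.02), polyamine synthesis (11, 0.04), cytosolic aminoacyl-tRNA synthetases (20, 0.21) and the amino acid response (30, 0.13). At an unadjusted p under 0.05 they held 1 to 4 higher genes each, and DESeq2 called 0 or 1. Over all tested genes the higher shares were 5.19% without overlap, 7.99% at an unadjusted p and 3.6% by DESeq2. Asns, asparagine synthetase, varied within both groups, from 50.2 to 212 CPM in the high-Myc and from 0.0315 to 269 CPM in the low-Myc lines. The low value was that of #649. Srm, spermidine synthase, had 523 ± 81.5 against 355 ± 85.7 CPM (SD, n = 4 lines each, edgeR adjusted p = 0.181). The heat shock list had 0 of 13 called and a median of 0.34. In that list 1 was higher by DESeq2 and 2 at an unadjusted p under 0.05, against 3.6% and 7.99%.

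Genes of the cell cycle did not pass the test in either direction. For DNA replication and S phase the median log2 fold change of 30 genes was -0.26. In that list 6 genes lay below without overlap (20%, against 7.39% of all tested genes). Among them was Mcm5, a subunit of the replicative helicase, at 321 ± 25.2 against 445 ± 35.6 CPM (SD, n = 4 lines each, edgeR adjusted p = 0.104). The 2 that lay above (6.67%, against 5.19%), Fen1 and Pola2, are both on chromosome 19. At an unadjusted p under 0.05, 2 were higher and 11 lower, against 7.99% and 10.8% of all tested genes. DESeq2 called 2 and 3, against 3.6% and 5.42%. For mitosis the median of 25 genes was 0.05 and 0 were free of overlap, with 2 higher and 2 lower at an unadjusted p under 0.05 and 0 and 1 by DESeq2. D cyclins and the Rb pathway had 6 of 19 genes below without overlap (31.6%, against 7.39%) and a median of -0.24. In that list 9 were lower at an unadjusted p under 0.05 and 5 by DESeq2, against 10.8% and 5.42% of all tested genes. Ccnd3, cyclin D3, had 80.3 to 130 CPM in the high-Myc lines and 136 (#649), 140 (#309), 288 (#517) and 936 (#504) CPM in the low-Myc lines (edgeR adjusted p = 0.166). Ccnd2, cyclin D2, was at 9.15 CPM in #136 and at most 0.113 in the other high-Myc lines, against 0.157 (#649), 90.3 (#309), 44.5 (#517) and 170 (#504) CPM.

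Cdkn2a, the ARF gene, split both groups. It was at 96.2 CPM in #115 and 145 in #136 but at 0.0368 in #549 and 0.0376 in #688. In the low-Myc lines it was at 212 CPM in #517 and at 3.43, 2.2 and 0.578 CPM in #649, #309 and #504. Trp53 was at 220 to 276 CPM in the high-Myc lines and at 67.2 CPM in #517 against 230 to 316 CPM in the other low-Myc lines. Its nearly absent line, #524 with 0.0698 CPM, was outside both groups. Mdm2 had 63.4 ± 10.9 and 71.7 ± 5.05 CPM (SD, n = 4 lines each). Of 25 p53 pathway genes 0 passed, the median was 0.10 and 3 lay below without overlap (12%, against 7.39% of all tested genes). Lower at an unadjusted p under 0.05 were 3, and DESeq2 called 2, against 10.8% and 5.42% of all tested genes. In the BCL2 family 0 of 13 passed. By DESeq2 1 was lower, and 3 at an unadjusted p under 0.05, against 5.42% and 10.8%. Bcl2 was at 1.38 to 12.6 against 6.4 to 27.0 CPM. Bcl2l11, the BIM gene, was at 45.6 ± 11.6 and 47.5 ± 2.17 CPM (SD, n = 4 lines each).

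Lists of B cell identity and antigen presentation had negative medians. The median log2 fold change was -3.22 for MHC class II (13 genes, 1 called, 6 below without overlap or 46.2%), and -0.98 for MHC class I (18 genes, 0 called, 5 below or 27.8%). Over all tested genes, 7.39% lay below without overlap. At an unadjusted p under 0.05, 8 genes of each list were lower, against 10.8% of all tested genes. DESeq2 called 6 and 4, against 5.42%. H2-Ab1, a class II beta chain, was at 8.13, 19.8, 3.5 and 12.0 CPM in #115, #136, #549 and #688, and at 80.8, 29.2, 201 and 80.4 CPM in #649, #309, #517 and #504 (edgeR adjusted p = 0.0951). Cd74, the invariant chain, overlapped, at 34.2, 7.71, 19.7 and 149 CPM in #115, #136, #549 and #688 and at 469, 61.9, 1201 and 12.1 CPM in #649, #309, #517 and #504. Line #524, outside the groups, exceeded them all with 4390 CPM of Cd74. Psmb8, a subunit of the immunoproteasome, had 51.2 ± 11.8 against 171 ± 78.9 CPM (SD, n = 4 lines each, edgeR adjusted p = 0.0793).

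In interferon response genes 0 of 18 passed and 8 lay below without overlap (44.4%, against 7.39% of all tested genes), with a median of -0.94. DESeq2 called 8 lower, and 11 were lower at an unadjusted p under 0.05, against 5.42% and 10.8% of all tested genes. Ddx58, the RNA sensor RIG-I, had 1.66, 1.83, 1.8 and 1.99 CPM in #115, #136, #549 and #688. It had 6.39, 7.12, 4.47 and 10.9 CPM in #649, #309, #517 and #504 (log2 fold change -1.94, SE 0.32, edgeR adjusted p = 0.0635). The values within the high-Myc group lay close together for this gene.

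B cell receptor signalling had 0 of 24 genes called and 7 below without overlap (29.2%, against 7.39% of all tested genes). Its median was -0.54, and 23 of 24 values were negative. By DESeq2 7 were lower, as were 7 at an unadjusted p under 0.05 in edgeR, against 5.42% and 10.8% of all tested genes. Inpp5d, the SHIP1 phosphatase that dampens signals from the receptor, had 70.4 to 139 CPM against 283 to 593 CPM (edgeR adjusted p = 0.0691), and Vav1 95.5 ± 8.09 against 149 ± 9.86 CPM (SD, n = 4 lines each, edgeR adjusted p = 0.0678). The pan-B list had 1 of 16 called (Blk) and a median of -0.37, with 1 below without overlap (6.25%, against 7.39%). DESeq2 called 3 of these genes lower, and 4 were lower at an unadjusted p under 0.05, against 5.42% and 10.8%. Progenitor genes had a median of -1.23 over 14 genes, with 0 called. By DESeq2 3 were lower, and 7 at an unadjusted p under 0.05, against 5.42% and 10.8%. In that list 2 lay below without overlap (14.3%, against 7.39%), Vpreb3 among them. It had 32.3 to 96.5 against 136 to 333 CPM (edgeR adjusted p = 0.0847). Rag1 overlapped, at 6.65 to 54.7 and 18.1 to 134 CPM. Mature B cell genes had a median of -0.72 over 18 genes and 0 called. By DESeq2 3 were lower, and 4 at an unadjusted p under 0.05, against 5.42% and 10.8%. Of the 18, 3 lay below without overlap (16.7%, against 7.39%). Cd86, a costimulatory ligand, was among them at 0.192 to 1.54 against 5.66 to 18.6 CPM (edgeR adjusted p = 0.0775). Ighm, the mu heavy chain, had 2352 ± 295 and 2314 ± 1125 CPM (SD, n = 4 lines each). Plasma cell genes had 0 of 7 called. By DESeq2 1 was higher, and 2 at an unadjusted p under 0.05, against 3.6% and 7.99% of all tested genes. In that list 2 lay above without overlap (28.6%, against 5.19% of all tested genes), Fkbp11 and Sdc1. Prdm1 and Jchain were at most 0.256 CPM in both groups.

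**Figure D5:**
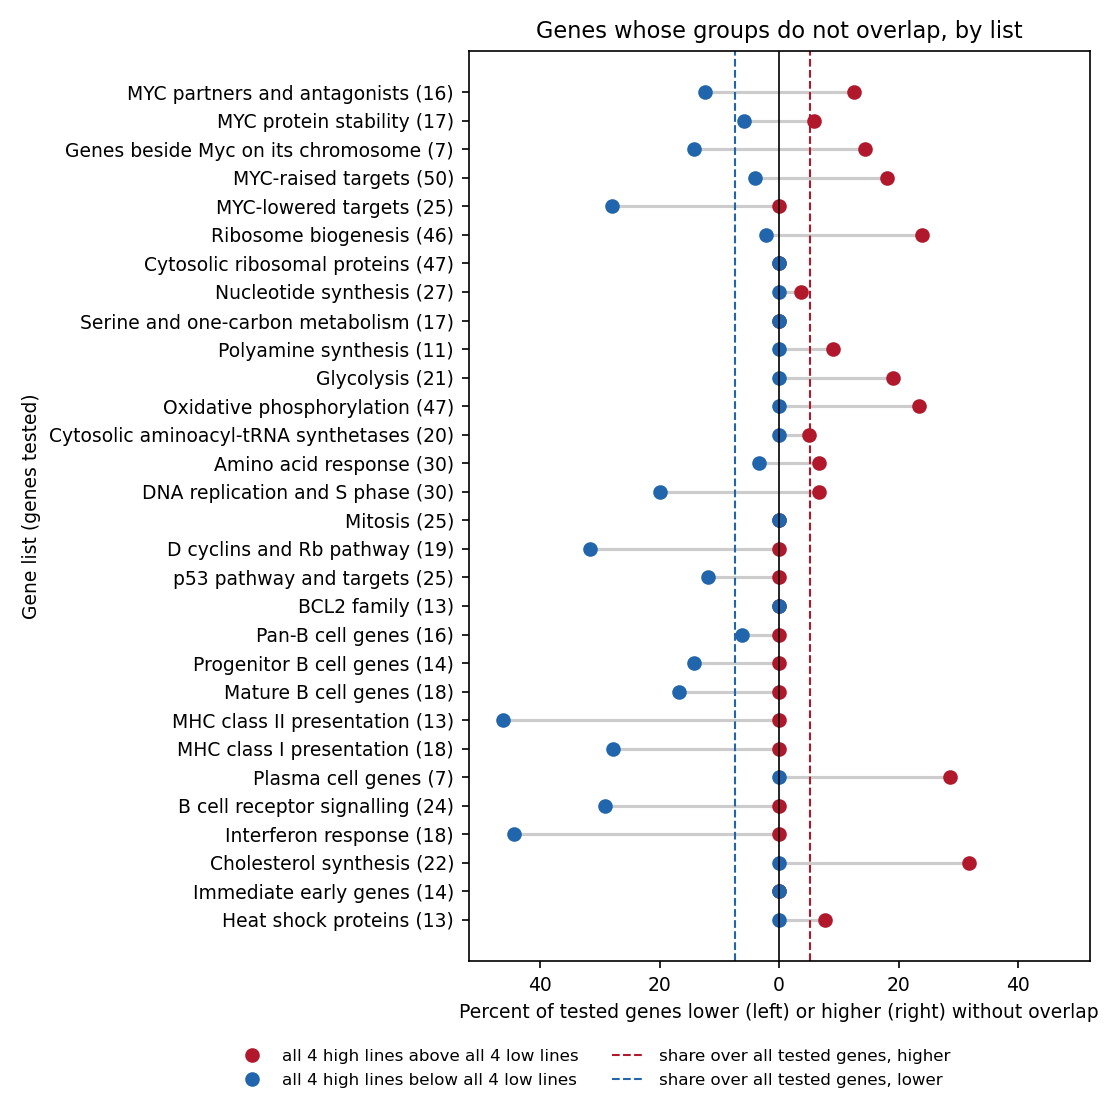
For each gene list (rows, genes tested in brackets), the percent of genes whose 4 high-Myc lines all lay above (red, right) or all below (blue, left) the 4 low-Myc lines; dashed lines give the same shares over all tested genes, 5.19% and 7.39%. Lists of MHC class II and interferon response genes extend furthest to the left, at 46.2% and 44.4%, and cholesterol synthesis furthest to the right, at 31.8%.

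The comparison was repeated with #504 left out before ranking, so that #517, #309, #649 and #801 formed the low-Myc group and the ratio of Myc means fell to 1.88. Of 13045 genes tested, 37 passed edgeR's test (0.284%), 22 higher and 15 lower. These included 17 of the 34 genes, 10 higher and 7 lower. Chromosome 19 again held 14 of the 22 higher genes, now with the fatty acid desaturase genes Fads1, Fads2, Fads3 and Scd2, whose log2 fold changes were 1.39, 2.12, 2.51 and 1.00. Xist also passed (log2 fold change 10.22, edgeR adjusted p = 0.0469), as all 4 low-Myc lines of the repeat had it at 0.488 CPM or less. Inpp5d was lower here, with a log2 fold change of -1.39 (SE 0.20, edgeR adjusted p = 0.0442). Dock10, Blk, H2-Oa, Plcb2, Ifi27, Slfn10-ps and Ahdc1 remained lower. Gm43291, Slc15a2 and Mgarp, which #801 expresses, did not pass. The list medians kept their sign for MHC class II (-3.50), interferon response (-0.86) and cholesterol synthesis (0.61). The median went from 0.21 to 0.11 for genes known to be raised by MYC, and moved from -0.98 to -0.57 for MHC class I, from -0.54 to -0.34 for B cell receptor signalling, from -0.26 to -0.15 for S phase and from 0.34 to 0.19 for heat shock genes. For glycolysis it moved from 0.31 to 0.49 and for D cyclins and the Rb pathway from -0.24 to -0.36. The sign turned for the p53 pathway (0.10 to -0.15), polyamine synthesis (0.04 to -0.08), mitosis (0.05 to -0.03), one-carbon metabolism (-0.02 to 0.08) and the partners and antagonists of MYC (-0.03 to 0.03). It also turned for 7 genes beside Myc (-0.02 to 0.01) and 3 T and NK cell markers (0.40 to -0.91).

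A fit of each gene on log2 Myc over all 12 lines called 311 genes higher and 575 lower with more Myc (2.15% and 3.98%, 6.14% in all), 16 of the 34 among them. Left without #504, the same fit over 11 lines called 17 and 9, 3 of the 34 among them.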

How the data were processed

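RNA was measured in 14 libraries, prepared by a strand-marking mRNA protocol and read from both ends, per the labels' protocols. The submitters' processing notes name STAR 2.4.0, Subread 1.5.0-p3 with featureCounts, and the build mm10 (GRCm38). The table that the authors deposited holds raw counts, as whole numbers, for 46959 genes. Another 100 entries of spike-ins and phage were left out of totals and tests. Each of the 14 columns matched a sample by its title. How the counting treated strand and reads with several matches is not given in the sources used here, so overlapping genes and near-identical copies are uncertain.

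The 12 cultured lines were ranked by Myc CPM. With edgeR 4.0.16 (R 4.3.3), low genes were removed by filterByExpr on the 4 high and 4 low lines, TMM scaling was applied, and both groups were fitted by glmQLFit and compared by glmQLFTest, with 6 residual degrees of freedom and Benjamini-Hochberg adjustment at 0.05. Myc itself was left out of the calls. Standard errors were derived from each gene's F statistic. Alternatives used limma 3.58.1 and DESeq2 1.42.0. Plots were drawn with matplotlib 3.10.9 in Python 3.11.15. Each library held 24597230 to 32614751 counts without molecular identifiers.

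The lines, the 33 gene lists and the tests were chosen with earlier results of these data known. Named genes were the 12 largest changes each way among called genes with at least 10 CPM in the higher group, 3 genes per list by smallest p, and set members of the MYC, p53 and B cell pathways. The remaining called genes were added. H2-Ab1, Psmb8, Cox8a, Pgk1, Ldha, the marker and V segment genes and those of the repeat without #504 were chosen after their values were seen. In simulated counts of 12875 genes with the 4 against 4 design, edgeR recovered 34% of changes of 2-fold, 82% of 4-fold and 96% of 8-fold, with 14 false calls. The changes were placed only in genes with a mean above 10 CPM, and the simulated libraries were independent. Recovery for genes of lower level, or among lines that resemble each other, was therefore not measured.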

Additional observations from a re-analysis of the deposited data

Results flagged for a closer look

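In 17 of 166 groups of 4 lines examined (83 genes, in the high-Myc and the low-Myc lines), 1 line lay far from the other 3, its gap, divided by the group's range, exceeding Dixon's 95% critical value. Chance flags about 1 in 20 groups when the 4 values are independent and normally distributed. CPM of genes that are near 0 in some lines and high in others need not follow that rate. The rate for these groups was not measured. Lzts2 was at 28.1 CPM in the high-Myc line #115, against 15.8 to 16.5 CPM in the other lines of its group. Ndufb8 was at 174 CPM in the high-Myc line #115, against 139 to 141 CPM in the other lines of its group. Odc1 was at 1053 CPM in the high-Myc line #115, against 709 to 762 CPM in the other lines of its group. Ccnd2 was at 9.15 CPM in the high-Myc line #136, against 0.032 to 0.113 CPM in the other lines of its group. Fads2 was at 89.2 CPM in the high-Myc line #136, against 43.2 to 50.4 CPM in the other lines of its group. Peo1 was at 130 CPM in the high-Myc line #549, against 149 to 151 CPM in the other lines of its group. Plxna3 was at 17.2 CPM in the high-Myc line #549, against 13.1 to 13.6 CPM in the other lines of its group. Fam65b was at 6.8 CPM in the high-Myc line #688, against 2.54 to 3.15 CPM in the other lines of its group. Hes1 was at 3.8 CPM in the high-Myc line #688, against 2.87 to 2.99 CPM in the other lines of its group. Fads1 was at 96.1 CPM in the low-Myc line #504, against 22.8 to 34 CPM in the other lines of its group. Fads2 was at 128 CPM in the low-Myc line #504, against 8.5 to 16.4 CPM in the other lines of its group. Inpp5d was at 593 CPM in the low-Myc line #504, against 283 to 293 CPM in the other lines of its group. Xist was at 768 CPM in the low-Myc line #504, against 0.0584 to 0.488 CPM in the other lines of its group. Cdkn2a was at 212 CPM in the low-Myc line #517, against 0.578 to 3.43 CPM in the other lines of its group. Cox8a was at 103 CPM in the low-Myc line #517, against 187 to 203 CPM in the other lines of its group. Foxo1 was at 148 CPM in the low-Myc line #517, against 74.6 to 85.4 CPM in the other lines of its group. Ncl was at 5601 CPM in the low-Myc line #649, against 3135 to 3213 CPM in the other lines of its group.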

How the results depend on the processing

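The counts of 20 genes higher and 14 lower moved with most settings. The first alternatives gave 1 and 0 with all 12 lines in 3 groups, 311 and 575 with log2 Myc as a numeric term, 65 and 76 with 6 lines against 6, 464 and 698 with DESeq2, and 2 and 0 with no filter beyond 1 count. Leaving out 1 line at a time gave 1 to 95 higher and 0 to 114 lower. Total-count and upper-quartile scaling, limma-voom, a mean of at least 5 CPM, 3 lines against 3, removal of immunoglobulin segments and ranking without #504 stayed within 1.5 times. Alternatives chosen after seeing the data gave 36 and 23 with #506 in place of #688, 62 and 109 with Y-linked expression as a term, 1 and 0 without chromosome 19 genes, 1 and 0 with #549 and #688 summed, 0 and 0 without #136 and #549, and 17 and 9 with numeric Myc over 11 lines. The causes were not tested.

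Of 2099 repeated log2 fold changes of 82 named genes, 1504 stayed on their side of the threshold, 491 no longer passed, 65 newly passed and 39 changed sign, none of these 39 in the 34 called genes. With numeric Myc over 12 lines Mnt came to 0.0288, Mxd4 0.42, Trp53 -0.0196, Fads2 -0.14 and Xist -0.44. With 3 lines against 3, Mnt came to 0.0367, Mxd4 0.51 and Xist -0.42. With 6 against 6, Bcl2l11 came to 0.24, Cdkn2a -1.28 and Mnt 0.0322. Ranked without #504, Cdkn2a came to -0.80 and Ighm -0.22, and over 11 lines -0.19 and -0.27. By limma-voom Cdkn2a came to -1.01 and Mxd4 0.21, and by total counts Ighm came to -0.0035. With #506 for #688, Bcl2l11 came to 0.0261 and Mnt 0.0496. With the Y term Bcl2l11 came to 0.0868, Mnt 0.0253 and Mxd4 0.81. Without #136 and #549, Cdkn2a came to -0.18 and Mdm2 0.0273. Leaving out 1 line at a time, Asns ran from -0.0041 to 1.32, Bcl2l11 from -0.15 to 0.14, Cdkn2a from -0.77 to 4.89, Ighm from -0.25 to 0.31, Mnt from -0.11 to 0.03, Mxd4 from -0.43 to 0.57, Trp53 from -0.0852 to 0.46 and Xist from -0.0024 to 10.34.

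No paired analysis was possible because the lines carry no shared replicate numbers across the groups. With 4 lines a group, recovery of 2-fold changes in simulated counts was 34%, so genes that missed the threshold are not shown to be equal.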
